A study of Mus musculus with 2 samples.

Results

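Sox4, Tcf7, Lef1, Tox, Tox2 and Satb1 encode DNA-binding proteins of T cells, and all 6 genes were found by symbol in the deposited table of 24081 genes. The first 5 belong to the HMG box proteins, and Satb1 is a chromatin organiser with CUT and homeobox domains. The set was chosen by gene family, with the knockout over control ratio of Sox4, among the highest in the table, in view, so the ratios of these genes are given as a description. The RNA came from Treg cells (regulatory T cells, which need Foxp3 and hold immune responses in check) taken from the spleen and lymph nodes of C57BL/6 mice aged 5 weeks by sorting CD4+ cells that carried YFP. Both libraries came from Foxp3cre/wt mice, which carry 1 Foxp3 allele with the Cre recombinase and 1 without. In the control mice (WT) 1 allele of a SUMO pathway gene was floxed, and in the knockout mice (KO) both were; this pathway attaches small SUMO proteins to other proteins. Foxp3 lies on the X chromosome, so in such heterozygous mice Treg cells without Cre remain and can fill the place of the cells that lost the gene. Cells of 5 to 10 mice were pooled for each of the 2 libraries, 1 in each group. The differences below are thus between single libraries, without replicates and without p-values.

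The HMG box is a small fold that binds the minor groove of DNA and bends it. Tcf7 (the protein TCF1) and Lef1 are close relatives that guide T cell development in the thymus and keep mature T cells in a resting, long-lived state; they also bind β-catenin, the effector of Wnt signals, and Groucho/TLE corepressors. Sox4 is active in T cell progenitors and is induced by TGF-β in CD4+ T cells. Tox is needed for the CD4 lineage in the thymus and is known from exhausted T cells, Tox2 from follicular helper T cells. Satb1 folds chromatin in thymocytes and prepares the enhancers of Treg genes, and in mature Treg cells Foxp3 holds its expression down.

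The promoters of Sox4 and Tox2 are shown because these genes stood at opposite ends of the set. Each run holds the 250 bases before the RefSeq start site on build GRCm38.p6, read 5′ to 3′ on the gene's strand; capitals mark CCAAT boxes, GC boxes (GGGCGG) and the SOX core (ACAAT) on either strand. Sox4 has a single start in RefSeq (chr13:28953700-28953949, minus strand), and for Tox2 the most upstream of 5 is shown (chr2:163202877-163203126, plus strand).
Sox4: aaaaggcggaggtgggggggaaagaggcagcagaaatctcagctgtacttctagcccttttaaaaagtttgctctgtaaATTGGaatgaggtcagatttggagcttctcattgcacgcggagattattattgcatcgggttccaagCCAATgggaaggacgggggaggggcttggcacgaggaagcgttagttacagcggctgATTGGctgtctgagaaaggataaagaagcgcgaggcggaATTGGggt
Tox2: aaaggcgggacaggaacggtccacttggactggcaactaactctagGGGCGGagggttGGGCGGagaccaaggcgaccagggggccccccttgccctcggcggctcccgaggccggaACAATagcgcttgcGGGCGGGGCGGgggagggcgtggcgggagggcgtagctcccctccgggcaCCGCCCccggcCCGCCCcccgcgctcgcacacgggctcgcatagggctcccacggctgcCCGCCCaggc

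The 2 printed windows differed in make-up. The Sox4 window held 4 CCAAT boxes and no GC box, with a GC content of 50.8% and 11 CpG. The Tox2 window held 7 GC boxes (2 of them sharing a base), 1 SOX core and no CCAAT box, with a GC content of 75.2% and 27 CpG. This holds for the start shown and not for all starts of Tox2: the window of start 3 held 4 CCAAT boxes and no GC box, as that of Sox4 did, and those of starts 4 and 5, which overlap, held 2 CCAAT boxes and 1 GC box each. Over all 32851 RefSeq windows of this length, 33.8% held a CCAAT box and 0.840% at least 4, 32.7% held a GC box and 0.411% at least 7, and 27.7% held a SOX core. The median GC content was 52.4%. A TCF/LEF motif, searched on both strands as CTTTGAA and as its variant CTTTGTT, was in 9.17% of all windows, in neither printed window, and at 1 site of Satb1, which lies in 2 of its 5 windows because these overlap. Other forms of the TCF/LEF motif were not searched. Matches are letters only, and binding was not measured. Tox had no window in the table used.

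Sox4 had the highest ratio of the 6 genes. The WT library held 119 of its reads and the KO library 799, which is 9.93 and 34.5 CPM (reads per 1000000, after scaling). Scaling used the TMM method of edgeR, which corrects for library size and composition. The KO library was thus 3.47-fold higher (exact 95% interval for counting error 2.86 to 4.25), or 1.79 on the log2 scale with a pseudocount of 1. Of the 10899 genes called expressed (a mean of at least 20 reads over both libraries), 19 had a higher ratio, and among the 9051 genes with a mean of at least 100 reads Sox4 was number 5. Its level per kilobase of exon (RPKM, the CPM divided by exon length) was 2.07 in WT and 7.19 in KO. That placed it above 18.1% of expressed genes in the first and above 41.6% in the second, so it was a low transcript in WT cells and a moderate one in KO cells. Such shares by level, here and below, are of the expressed genes with an annotated exon length.

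Tox2 lay on the other side. Its reads numbered 149 in WT and 73 in KO, although the KO library held 2.04 times as many gene reads. Scaled, this is 12.4 and 3.15 CPM, 3.95-fold lower in the KO library (2.96 to 5.30), or -1.96 on the log2 scale. Of all expressed genes 47 had a lower ratio, and Tox2 was number 20 from the lowest among the genes with a mean of at least 100 reads. Its level was 3.92 and 0.994 RPKM, above 28.5% and 9.95% of expressed genes. In sorted cells read as a bulk, fewer cells that carry a transcript and less of it in each cell cannot be told apart.

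Tox, the closest relative of Tox2 in the set, hardly differed. It had 2364 and 4302 reads, 197 and 186 CPM, a fold of 0.941 (0.895 to 0.990). Its log2 ratio of -0.09 turned to 0.0081 when the trend with GC content described below was removed, so no direction is given for Tox.

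Tcf7 and Lef1 differed alike and by little on the scaled counts. Tcf7 had 15923 reads in WT and 38621 in KO, 1.25-fold higher (1.23 to 1.28), and Lef1 had 3937 and 9658, 1.27-fold higher (1.22 to 1.32). The number of Tcf7 reads per Lef1 read, a value that needs no scaling, was 4.04 in WT and 3.999 in KO, a quotient of 0.989 (0.948 to 1.03). That quotient is not free of the trend with GC content described below. With the trend removed, the log2 ratios were 0.28 for Tcf7 and 0.43 for Lef1, less alike than before. Satb1 had 9648 and 27208 reads and was 1.46-fold higher (1.42 to 1.49), just short of the 1.5-fold used to call a gene. Its log2 ratio of 0.54 exceeded that of 91.2% of expressed genes. The ratios of Tcf7 and Lef1 exceeded those of 80.6% and 81.5%.

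At 1.5-fold, 1 of the 6 members was called higher in the KO library (Sox4), 1 lower (Tox2) and 4 lay between. Over all 10899 expressed genes 7.43% were called higher and 5.51% lower. At 2-fold Sox4 and Tox2 were again the members past the threshold, beside 1.59% and 2.08% of all expressed genes. All 6 members passed the floor on reads.

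**Figure D1:**
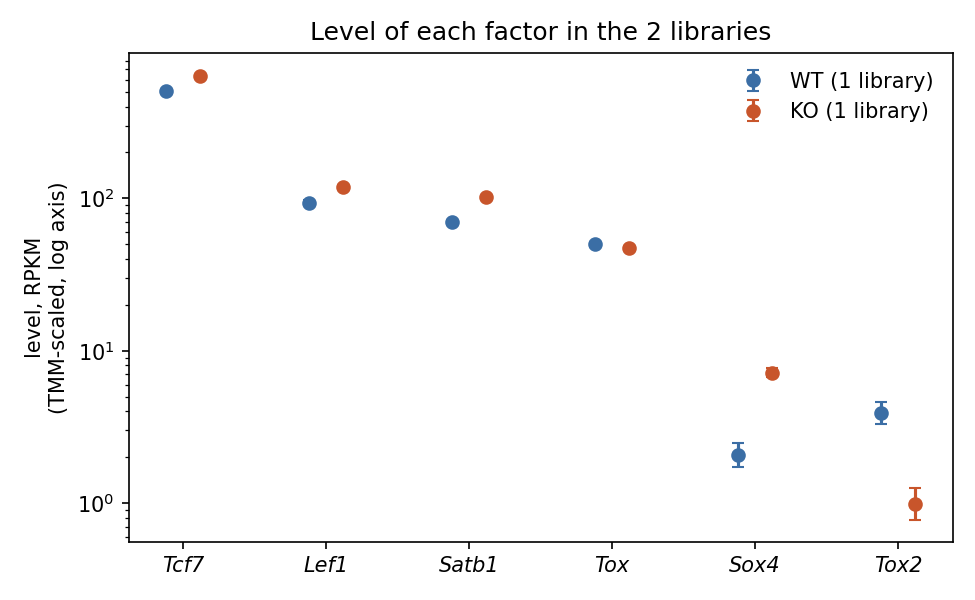
Level of each factor in the WT (blue) and KO (orange) library, in RPKM on a log axis, with bars for the exact 95% counting interval (many are smaller than the points). Tcf7 stands at 506 and 635, and Sox4 and Tox2 change places at the low end.

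The order of levels per kilobase had Tcf7 on top in both libraries, at 506 RPKM in WT and 635 in KO, above 99.3% and 99.4% of expressed genes. Lef1 followed at 93.7 and 119, Satb1 at 70.1 and 102, and Tox at 49.8 and 46.9. The counting intervals of neighbours in this order did not overlap, which says nothing about the spread between mice. The place of Satb1 rests on its gene model. Over the 11491 bases of all its annotated exons it stood below Lef1, but per kilobase of its longest transcript it was at 129 and 188, above Lef1 at 89.9 and 114. At the low end the order turned over. Tox2 stood above Sox4 in the WT library (intervals 3.32 to 4.604 and 1.72 to 2.48) and below it in the KO library (0.779 to 1.25 and 6.70 to 7.71).

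Within a library the ratio of 2 members does not depend on scaling, and 15 such pairs were formed. Their quotients can still carry the GC trend described below. There were 0.799 Sox4 reads for each Tox2 read in WT and 10.9 in KO, a 13.7-fold difference (9.62 to 19.5). This pair joins the highest and the lowest ratio of the set, so it is the widest of the 15 by construction. Its interval makes no allowance for that choice. Sox4 also gained on its abundant relatives: 134 Tcf7 reads stood against each Sox4 read in WT and 48.3 in KO, a quotient of 2.77 in favour of Sox4 (2.28 to 3.39). Between Tox and Tox2 the count went from 15.9 Tox reads per Tox2 read to 58.9, a 3.71-fold difference (2.77 to 5.01). Satb1 gained on Tcf7 more modestly, from 0.606 to 0.704 reads per Tcf7 read, 1.16-fold (1.13 to 1.20). Even so, Sox4 made up 0.370% of the 32140 reads of the 6 genes in WT (exact binomial interval 0.307 to 0.443) and 0.991% of the 80661 in KO (0.923 to 1.06).

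The ratio of a gene moved with the GC content of its transcript in these libraries, and the members were set against it. Sox4, with a GC content of 51.1%, fell, when expressed genes were cut into 10 groups by GC content, in one (49.5% to 51.3% GC) whose median log2 ratio was -0.00, and 3 of the 1046 genes there had a higher ratio. Tox2, at 56.1%, fell in a group with a median of 0.22, and 2 of its 1047 genes had a lower ratio. Satb1, at 44.8%, fell in a group with a median of -0.08, where 45 of 1046 genes were higher. A smooth trend on GC content and on the length of all annotated exons was then removed. The log2 ratios were 1.72 for Sox4, -2.18 for Tox2, 0.46 for Satb1, 0.43 for Lef1 and 0.28 for Tcf7. Sox4 was then number 13 from the top of 10467 genes and Tox2 number 38 from the bottom.

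**Figure D2:**
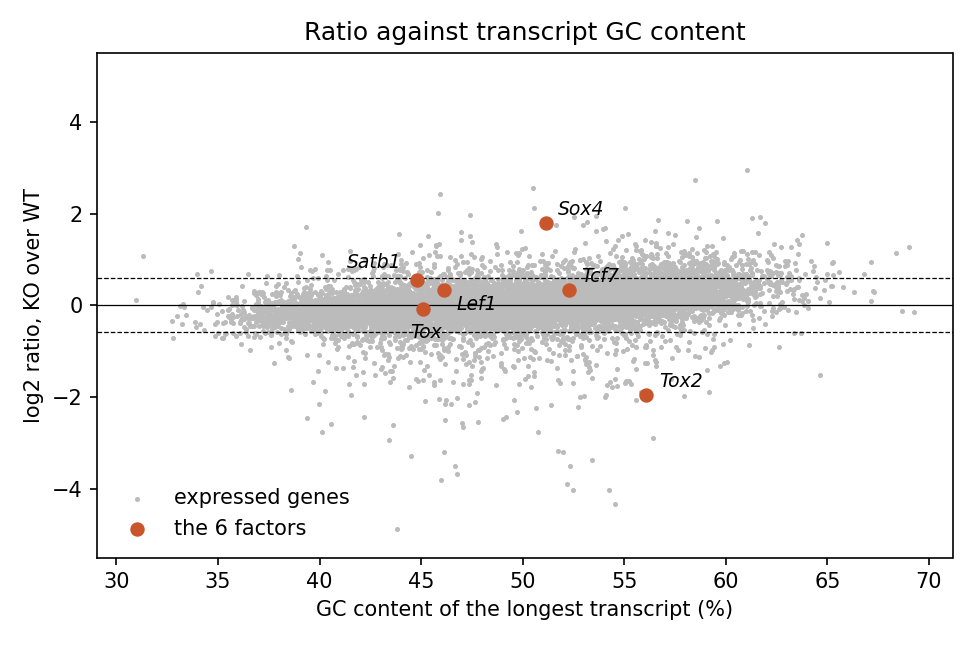
Log2 ratio of KO over WT (vertical axis) against the GC content of the longest transcript in percent (horizontal axis) for expressed genes (grey) and the 6 factors (orange); dashed lines mark 1.5-fold. Sox4 at 1.79 and Tox2 at -1.96 lie near the edges of the scatter of genes of like GC content. In their GC groups, 3 of 1046 genes lie above Sox4 and 2 of 1047 below Tox2. The other 4 factors lie inside the dashed lines.

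Gene models from GENCODE vM21 (build GRCm38) bear on how sure the counts are. Sox4 is a gene of 1 exon (chr13:28948919-28953713, minus strand), and 54.6% of that exon is shared with the long noncoding RNA Gm26735 on the opposite strand. Antisense transcripts also share 34.5% of the exons of Lef1 (Gm43352) and 6.56% of those of Tox (Gm11802). No source used here says whether strand was used in counting, so reads of Sox4 and of the transcript opposite to it cannot be told apart. Tcf7 and Tox2 share no exon bases with another gene in that annotation, and Satb1 shares 1.36% or less with any single gene.

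Markers of other cells were measured beside these genes. Treg markers were present in both libraries. Foxp3 had 8540 and 30579 reads (1.85-fold), Cd4 23224 and 54375 (1.21-fold), and the 8 listed genes summed to 5487 and 6613 CPM. Of the 8, Foxp3 was called higher, Ikzf2 (0.63-fold) and Ctla4 (0.62-fold) were called lower, and 5 lay between. Among all expressed genes 7.43% were called higher and 5.51% lower. Of 7 genes of immature thymocytes, where Sox4, Satb1 and Tox are strongly expressed, Rag2 and Ptcra had 0 reads in both libraries, Rag1 had 3 and 0, and Dntt had 13 and 35. The list summed to 35.2 and 43.8 CPM, most of it Cd8b1 (328 and 818 reads). B cell genes summed to 144 and 118 CPM, none of the 8 at 0. Their calls were 3 lower, Cd79b (2.06-fold lower in the KO library) among them, and 5 between. By sign, 4 of these log2 ratios were positive and 4 negative, with the middle of the list at -0.03. Myeloid and dendritic cell genes summed to 438 and 413, and NK and innate lymphoid genes to 16.9 and 18.0, with Klrb1c 3.22-fold lower and Eomes 1.74-fold higher. CD8 T cell genes summed to 48.9 and 48.2, with Nkg7 2.43-fold and Ccl5 1.61-fold lower in the KO library and Cd8b1 at 1.29-fold, and the 7 erythroid genes to 14.3 and 5.57, with 4 globin genes at 0 in both libraries. Of stromal and endothelial genes Pecam1, which T cells also express, made up most of the reads (3535 and 7511), and Cdh5 had 22 and 36. The gamma delta and innate-like list is given in part and without its sum: Zbtb16 had 2 and 8 reads and Blk 79 and 109. What part other cells had in the ratios of the 6 genes was not tested.

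The wider HMG box family was then read from a list of 44 genes, of which 25 passed the floor. Apart from the 5 members, 20 were measured: 4 were called higher in KO, none lower, and 16 lay between. The median log2 ratio was 0.02 against 0.01 over all expressed genes. For this and each list below, the shares over all expressed genes were 7.43% higher and 5.51% lower. With the GC and length trend removed, they were 4.01% and 6.08% of 10467 genes. The 4 were Tcf7l1 and Tcf7l2, the remaining relatives of Tcf7 and Lef1, Sox12, from the same SOX subgroup as Sox4, and Cic, a transcriptional repressor released by MAP kinase signals. Tcf7l1 had 67 and 317 reads (2.45-fold, 1.87 to 3.23), and Tcf7l2 had 27 and 90 (1.72-fold, 1.11 to 2.76). Sox12 had 48 and 181 reads (1.95-fold, 1.41 to 2.74), and Cic 2722 and 11297 (2.15-fold, 2.06 to 2.24). With the GC trend removed, Tcf7l1 and Tcf7l2 stayed past 1.5-fold at 0.92 and 0.81, while Sox12 and Cic, with GC contents of 59.9% and 61.6%, were at 0.51 and 0.42 and were no longer called.

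Levels in this family differed widely. Tcf7l1 and Tcf7l2 stood at 4.44 and 0.878 RPKM in KO, against 635 for Tcf7. Tox4, a widely expressed relative of Tox, was at 31.0 and 31.1 (fold 1.00, 0.951 to 1.06). Sox13, known from gamma delta T cells, had 0 and 7 reads and Tox3 0 and 4; both were under the floor, and a count of 0 allows up to 3 reads. Of the 44 genes 11 had no read in either library, Sox11, the third gene of the Sox4 subgroup, among them.

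**Figure D3:**
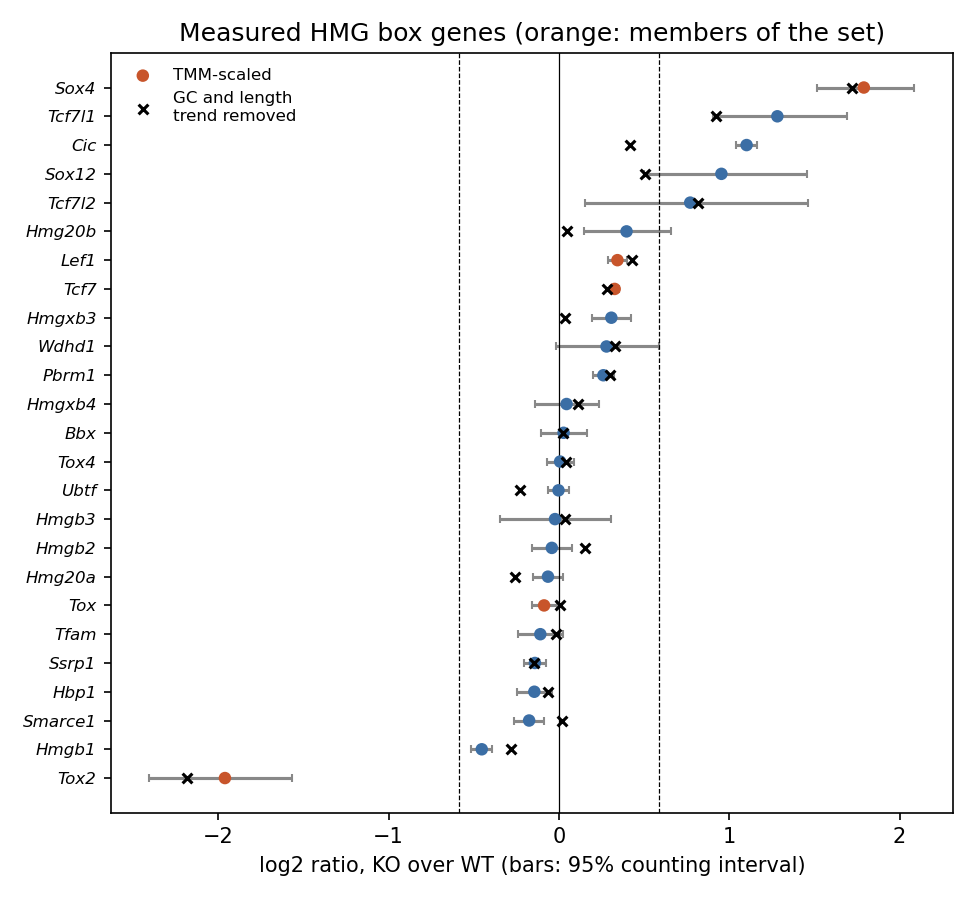
Log2 ratio of KO over WT for the 25 measured HMG box genes, members of the set in orange, with bars for the exact 95% counting interval; crosses show the value with the GC and length trend removed, and dashed lines mark 1.5-fold. Sox4 (1.79) and Tox2 (-1.96) are the end points, and the cross of Cic (0.42) lies far to the left of its point (1.10).

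Tcf7 and Lef1 act with β-catenin when Wnt signals are on and with TLE corepressors when they are off. Of 41 listed genes of this pathway 29 were measured. Calls of higher numbered 6 and of lower 2, and 21 genes lay between; the median log2 ratio was 0.27. The largest differences were in Fzd6, a Wnt receptor (30 and 24 reads, 2.42-fold lower, 1.37 to 4.32), Bcl9, a coactivator of β-catenin (623 and 2405 reads, 1.996-fold higher, 1.83 to 2.18), Rnf43, a ligase that removes Wnt receptors (433 and 448 reads, 1.87-fold lower), and Ctnnbip1, which blocks the binding of β-catenin to TCF proteins (13 and 48 reads, 1.91-fold higher, 1.02 to 3.84). The gene for β-catenin itself, Ctnnb1, had a log2 ratio of -0.21, and Axin2, which TCF proteins activate in many tissues, one of 0.30. The corepressor Tle3 was at 0.58, just under the call, and Tle4 at -0.02. Without the GC trend 2 of the 6 higher calls were kept, Bcl9 and Ctnnbip1, both lower calls were kept, and Fzd5 and Fzd7 joined them at -0.72 and -0.66; the median was 0.09. Bcl9l, Lrp5, Dvl1 and Dvl3 then lay between, and Dvl3 also with total-count scaling (0.58).

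A further list held genes of resting and stem-like T cells that are linked to Tcf7 and Lef1. Of 18 measured, 4 were called higher (Igfbp4, Klf2, Il6ra and Bach2), none lower and 14 between. The median was 0.36, and 16 of 18 lay above 0, against 51.4% of all expressed genes. Per kilobase, Klf2, which keeps T cells quiescent, went from 135 to 229, and Igfbp4, a binding protein of insulin-like growth factors, from 66.8 to 126. Slamf6, a marker of stem-like T cells, was at -0.50, and the IL-7 receptor Il7r at -0.05. Removing the GC trend left the median at 0.35 and kept the call of Igfbp4 alone, and with total-count scaling Bach2 and Il6ra were no longer called (0.52 and 0.53).

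Of 16 T lineage transcription factors, 2 were higher, 14 lay between and none was lower, with a median of 0.31. Gata3, which directs CD4 and type 2 helper fates, had 1040 and 3193 reads (1.59-fold, 1.48 to 1.70), and Tcf3, which encodes the E proteins E12 and E47, 1165 and 3609 (1.60-fold, 1.499 to 1.71). Corrected for GC content, Gata3 was at 0.69 and Tcf3 at 0.24, and the median was 0.13. Both figures for Gata3 exceed those of Satb1 (0.54 and 0.46).

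The 8 Treg genes with enhancers linked to Satb1 went both ways: 2 higher, 2 lower and 4 between (median 0.20). Lrrc32, which presents latent TGF-β, and Foxp3 were the higher ones, at 1.24 and 0.89 on the log2 scale. Ctla4, an inhibitory receptor, and Ikzf2, the factor Helios, were the lower ones, at -0.69 and -0.66. When the GC trend was removed, Ctla4 was at -0.55, between, and the other 3 calls were kept.

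Genes tied to Tox in exhausted T cells were mostly lower, while Tox itself lay between. Of 15 measured inhibitory receptors and partner factors 9 were lower and 2 higher, beside 5.51% and 7.43% of all expressed genes. Another 4 lay between, and the median was -0.69. The receptor Tigit had 548 and 92 reads (log2 ratio -3.51), Lag3 605 and 492 (-1.25), the T-bet gene Tbx21 85 and 83 (-0.97) and Pdcd1, which encodes PD-1, 603 and 595 (-0.97). Eomes and Nr4a1 were the 2 higher genes, at 0.79 and 0.93. With the GC trend removed 7 of the 9 lower calls were kept, all but Ctla4 and Prdm1, and both higher ones.

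Genes of follicular helper cells, in which Tox2 and Tcf7 are known to act, were lower or little different. Of 11 measured, 5 were lower and none was higher, beside 5.51% and 7.43% of all expressed genes. The other 6 lay between, and the median was -0.20. Maf, a transcription factor that supports follicular helper cells, had 939 and 399 reads (4.55-fold lower), the follicle homing receptor Cxcr5 818 and 489, the costimulatory receptor Icos 1945 and 1441, and Pdcd1 is given above. Bcl6, the defining factor of these cells, was at 0.01 (530 and 1033 reads), and Il21 was under the floor with 13 and 8. With the GC trend removed 4 of the 5 lower calls were kept, all but Sh2d1a.

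TGF-β induces Sox4 in T cells, and 17 of 19 listed genes of its pathway were measured. Of these, Lrrc32 and Smad7 were higher, Itgae was lower and 14 lay between; the median was 0.04. Smad7, a feedback inhibitor that TGF-β induces, had 1063 and 3307 reads (1.61-fold higher, 1.501 to 1.73), and 0.38 on the log2 scale, no longer called, with the GC trend removed. Itgae, the integrin chain CD103 that TGF-β also induces, had 538 and 230 reads (4.52-fold lower). The receptor genes Tgfbr1 and Tgfbr2 were at -0.24 and 0.04, and the signal carrier Smad3 at -0.08.

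**Figure D4:**
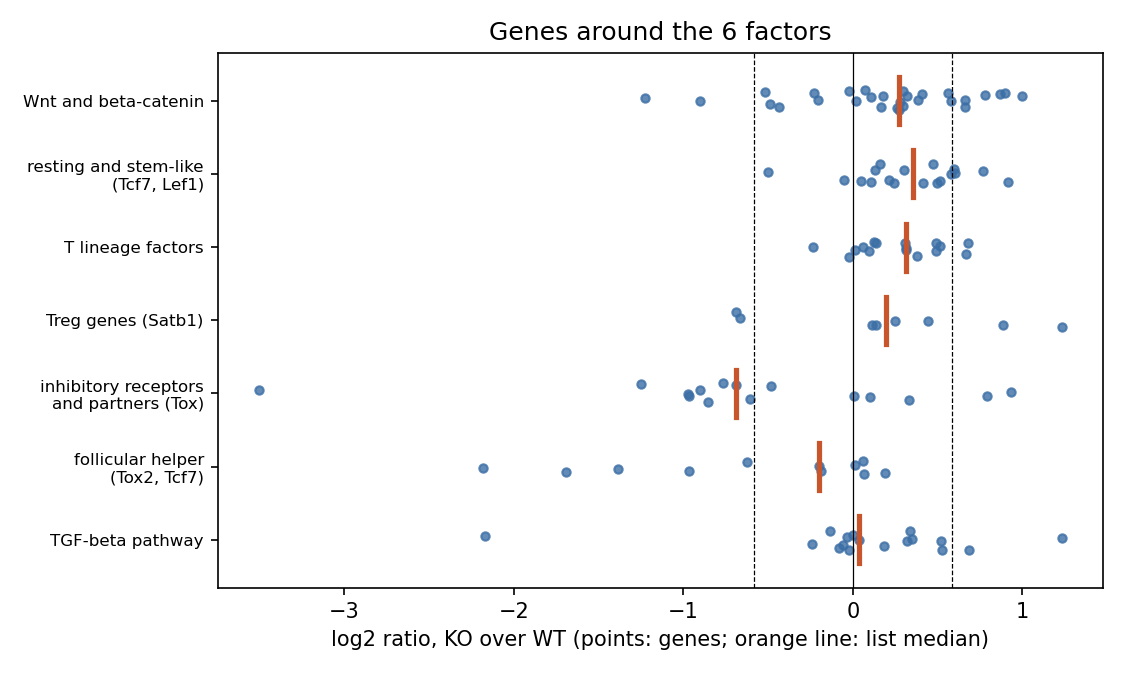
Log2 ratio of KO over WT of each measured gene (points) in 7 lists around the 6 factors, the factors themselves left out; orange lines mark list medians, dashed lines 1.5-fold, and the vertical scatter within a list has no meaning. The median of the inhibitory receptor list is -0.69 and those of the other lists lie between -0.20 and 0.36.

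Over all expressed genes, 57.4% of the 1.5-fold calls were higher, against 39.8% with the GC trend removed and 45.1% with total-count scaling, so counts of higher calls in these lists are the ones that move most. Overlaps were taken with 1 other gene at a time and not added up. Opposite-strand exons of a single gene cover 25.8% of those of Ctnnbip1, 37.8% of those of Sh2d1a, 17.8% of those of Fzd5 and 14.4% of those of Foxp3. Foxp3 also shares 9.10% with another gene on the opposite strand and 9.17% with 1 on its own. For the other genes named from the pathway lists, no single opposite-strand gene reaches 10 percent.

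The 3 genes closest to Sox4 in mean scaled count and log2 ratio over the 2 libraries were Ptprf, Map6 and Whrn, at distances of 0.32, 0.52 and 0.57 log2 units. Ptprf, a receptor tyrosine phosphatase, had 93 and 647 reads (3.60-fold higher, 2.89 to 4.52). Map6, a microtubule-stabilising protein, had 186 and 965 (2.68-fold, 2.29 to 3.16), and Whrn, a scaffold protein of hair cells, 134 and 626 (2.42-fold, 2.002 to 2.93). Their transcripts are richer in GC than that of Sox4, at 58.1%, 56.0% and 63.2%, and with the trend removed they were at 1.35, 1.11 and 0.66, below Sox4 at 1.72.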

How the data were processed

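Per the submitters' processing notes, reads were processed with TopHat2 2.0.3, HTSeq and build mm10; no source used here names the annotation or strand setting. The authors deposited raw read counts per gene symbol (11662867 gene reads in WT, 23789264 in KO, 76.6% of all counted entries in each); 5 counter categories were left out. Groups rest on the titles, since both samples carry a wild type genotype label. Counts were scaled with TMM (edgeR 4.0.16, R 4.3.3). DESeq2 1.42.0 gave size factors only. The pseudocount was 1, the floor a mean of 20 reads, the call 1.5-fold. Exact intervals at 95% cover counting error only, and they treat reads as independent molecules, which reads are not. They are conditional binomial for the folds of KO over WT and binomial for shares of reads. For pairs of members they are conditional odds ratio intervals, and for levels in RPKM they are Poisson intervals. Folds printed with these intervals use no pseudocount. Lengths and GC content came from GENCODE vM21, with 96.0% of expressed genes matched; the trend was a loess fit (span 0.5). Scripts were tested on simulated data. From each list, genes past the call with the 4 largest ratios are named, with fixed additions; further names, such as Slamf6, Il7r, Bcl6, Il21, Eomes, Nr4a1, Sox11 and the TGF-β receptors, were chosen after their values were seen. Members and lists were chosen with earlier results of these data known. The targeted gene and 2 genes of the lists are not reported here.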

Additional observations from a re-analysis of the deposited data

How the results depend on the processing

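No paired analysis was possible because each group has 1 library, and none could be left out. Sox4 was called higher and Tox2 lower under every scaling, pseudocount, floor, call and GC alternative run, with log2 ratios of 1.71 to 1.79 and -2.18 to -1.89. DESeq2 size factors and pseudocounts of 0.5 and 5 kept all 6 members within their counting intervals. Total-count scaling gave 0.25 for Tcf7, 0.27 for Lef1, -0.16 for Tox and 0.47 for Satb1, all outside them, and removal of the GC and length trend gave 0.28, 0.43, 0.0081 and 0.46. Over the lists together, 21 genes other than the members were called higher and 17 lower, a gene in more than 1 list counted once. The number of distinct genes measured over all lists is not given, so these counts are not turned into shares. With the GC trend removed 10 were higher and 16 lower, and at 2-fold 3 were higher and 7 lower. The shares over all expressed genes were 7.43% higher and 5.51% lower. With the trend removed they were 4.01% and 6.08%, and at 2-fold 1.59% and 2.08%. Without the floor the calls on all expressed genes would hold many with few reads (17.1% higher, 12.2% lower of 15329). Depth limits Tox2 in the KO library most, at 73 reads, and then Sox4 and Tox2 in the WT library, at 119 and 149.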
